A study of Mus musculus with 6 samples.

Results

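Steroidogenic genes were examined in cultured fetal mouse ovaries that had been exposed to N-acetyl-p-benzoquinone imine (NAPQI), the reactive metabolite of acetaminophen. The set holds 10 genes, Star, Cyp11a1, Cyp17a1, Cyp19a1, Hsd3b1, Hsd3b6, Hsd17b1, Srd5a1, Fdx1 and Nr0b1, chosen by name out of the 21898 genes of the deposited count table. Wild-type ovaries were taken at 14.5 days post coitum and cultured for 3 days in serum-free medium with 15 µM NAPQI (3 libraries) or with an equal volume of the solvent ethyl acetate (3 control libraries). RNA was extracted from whole ovaries, so fewer cells of a type and less RNA per cell cannot be told apart. Whether libraries came from separate litters or cultures is not stated, so p-values measure the spread among the 6 libraries alone and that spread may be technical.

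Steroid hormones are made from cholesterol in a chain of steps. STAR carries cholesterol into the mitochondrion, CYP11A1 cleaves its side chain with electrons passed on by ferredoxin (FDX1), HSD3B enzymes turn pregnenolone into progesterone, and CYP17A1 makes androgen precursors that aromatase (CYP19A1) converts to oestrogens. The chain is switched on largely by the nuclear receptor NR5A1 and is held back by NR0B1 (DAX-1), which represses NR5A1. In the fetal testis Leydig cells run this chain, whereas the fetal ovary is known for low steroid output before follicles form.

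The ovaries held an uneven set of these transcripts, and none of them was called different with NAPQI. Hsd3b1 stood far above the rest, at 44.6 ± 6.97 fragments per kilobase of gene length, scaled to library size (FPKM) with NAPQI and 51.0 ± 8.80 FPKM in controls (mean ± SD, n = 3 each). Cyp11a1, the enzyme that feeds HSD3B1 its substrate, was the lowest of the 10, at 0.0767 ± 0.0126 FPKM with NAPQI and 0.128 ± 0.0910 FPKM in controls. Cyp19a1, the aromatase gene, was close to it, at 0.114 ± 0.0331 FPKM with NAPQI and 0.151 ± 0.119 FPKM in controls.

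The promoters of 3 of these genes are shown because they belong to the most abundant pair, Hsd3b1 and Nr0b1, and to Hsd3b6, the paralog that lies next to Hsd3b1 on chromosome 3 at a far lower level. Each is the RefSeq window (GRCm38.p6) from 250 bases before to 50 bases after the start site, 5′ to 3′ on the gene's strand. RefSeq windows were matched for 7 of the 10 genes. Capitals mark AGGTCA (the half-site of nuclear receptors), AGATAA or TGATAA (motifs of GATA factors) and TATAAA (the TATA box), each searched on both strands.
Hsd3b1 (chr3:98859745-98860044, minus strand): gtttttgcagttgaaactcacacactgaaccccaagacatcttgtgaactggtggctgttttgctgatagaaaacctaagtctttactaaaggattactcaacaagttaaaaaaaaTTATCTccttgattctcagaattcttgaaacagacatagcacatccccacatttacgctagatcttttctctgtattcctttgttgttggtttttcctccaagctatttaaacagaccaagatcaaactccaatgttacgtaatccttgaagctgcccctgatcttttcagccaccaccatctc
Hsd3b6 (chr3:98814394-98814693, minus strand): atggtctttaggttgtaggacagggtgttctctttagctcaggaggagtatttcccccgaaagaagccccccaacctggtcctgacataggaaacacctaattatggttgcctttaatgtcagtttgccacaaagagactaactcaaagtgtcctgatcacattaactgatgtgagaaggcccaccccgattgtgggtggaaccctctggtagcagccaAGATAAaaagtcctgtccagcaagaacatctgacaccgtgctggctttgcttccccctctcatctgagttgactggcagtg
Nr0b1 (chrX:86191525-86191824, plus strand): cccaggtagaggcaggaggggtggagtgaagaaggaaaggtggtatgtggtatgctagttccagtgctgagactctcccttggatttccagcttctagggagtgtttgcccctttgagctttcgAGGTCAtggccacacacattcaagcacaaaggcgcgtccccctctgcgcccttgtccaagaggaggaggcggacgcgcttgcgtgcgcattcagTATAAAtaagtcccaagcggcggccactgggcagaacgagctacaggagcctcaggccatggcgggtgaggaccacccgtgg
The Hsd3b1 window held AGATAA on the opposite strand and the Hsd3b6 window AGATAA on the gene's own strand, a motif present in 11.2% of the 32851 promoter windows of the table. The Nr0b1 window held 1 AGGTCA, found in 16.3% of windows, and 1 TATAAA, found in 13.6%. The longer half-site AAGGTCA, which contains AGGTCA and is the form preferred by NR5A1, was in 4.7% of all windows and in none of the windows of the 7 genes. A match or its lack describes the letters of the window only.

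Read per kilobase, the levels of the 10 genes spanned a wide range. Over the 6 libraries Hsd3b1 averaged 47.8 FPKM, above 93.9% of the tested genes. Nr0b1 followed at 8.51 FPKM and Fdx1 at 7.16 FPKM, both near the middle of the tested genes (above 55.7% and 51.0% of them). Star averaged 4.08 FPKM, Srd5a1 2.06 FPKM, Cyp17a1 1.35 FPKM, Hsd17b1 1.24 FPKM and Hsd3b6 0.804 FPKM. Cyp19a1 at 0.133 FPKM and Cyp11a1 at 0.102 FPKM were above only 1.2% and 0.6% of the tested genes. Both fell below the count filter that defines the tested genes, so a low rank among those follows from the filter.

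Some neighbours in this order were not separated. The FPKM ranges of Nr0b1 and Fdx1, of Cyp17a1 and Hsd17b1, of Hsd17b1 and Hsd3b6, and of Cyp19a1 and Cyp11a1 overlapped over the 6 libraries. Hsd3b1 exceeded Nr0b1 5.62-fold on average, and Hsd3b6 exceeded Cyp19a1 6.06-fold; in both cases the higher gene was higher in 6 of 6 libraries with ranges apart. The steps between Fdx1, Star, Srd5a1 and Cyp17a1 were smaller, but there too the ranges lay apart and the order held in 6 of 6 libraries.

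**Figure D1:**
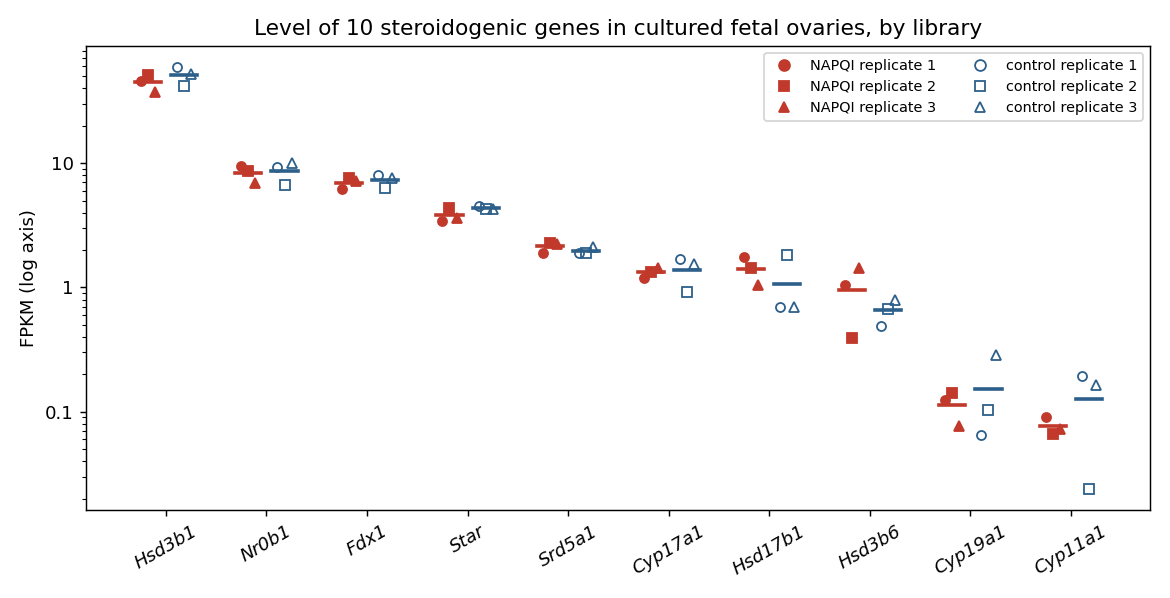
Level of each of the 10 genes in FPKM on a log axis, with 1 point per library and a bar at the group mean (filled red, NAPQI; open blue, control). Hsd3b1 lies highest and Cyp19a1 and Cyp11a1 lowest, and the points of the groups overlap for every gene.

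Tissue markers bear on the name of the set. Markers of pregranulosa cells, the supporting cells of the fetal ovary, were abundant, with Foxl2 at 92.6 to 108 FPKM with NAPQI and 102 to 124 FPKM in controls. Germ cell markers were abundant too, with Dazl at 99.5 to 120 FPKM with NAPQI and 89.4 to 114 FPKM in controls. Insl3, a hormone made by Leydig cells, had 0, 6 and 2 counts in NAPQI replicates 1, 2 and 3 and 11, 5 and 3 counts in control replicates 1, 2 and 3. Hsd17b3, the Leydig and Sertoli cell enzyme that makes testosterone, stayed at 6 to 8 counts with NAPQI and 4 to 15 counts in controls. The adrenal cortex enzymes Cyp21a1 and Cyp11b1 had at most 5 and 2 counts in any library, and Cyp11b2 had 0 in all 6. Other genes of the same lists were higher: Thbs2, of the Leydig list, was at 28.8 to 37.0 FPKM with NAPQI and 33.6 to 43.8 FPKM in controls, and Mrap, of the adrenal list, at 1.41 to 1.81 FPKM with NAPQI and 1.41 to 1.88 FPKM in controls. Akr1b7, another adrenal marker, had 1, 1 and 0 counts with NAPQI and 5, 7 and 7 counts in controls, too few to be tested. Nr5a1 itself was at 42.6 to 49.2 FPKM with NAPQI and 38.1 to 40.7 FPKM in controls. All its NAPQI libraries lay above all controls, a pattern seen in 7.26% of tested genes. The log2 fold change of Nr5a1 was 0.19 ± 0.09 (SE, edgeR unadjusted p = 0.0503, adjusted p = 0.542).

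**Figure D2:**
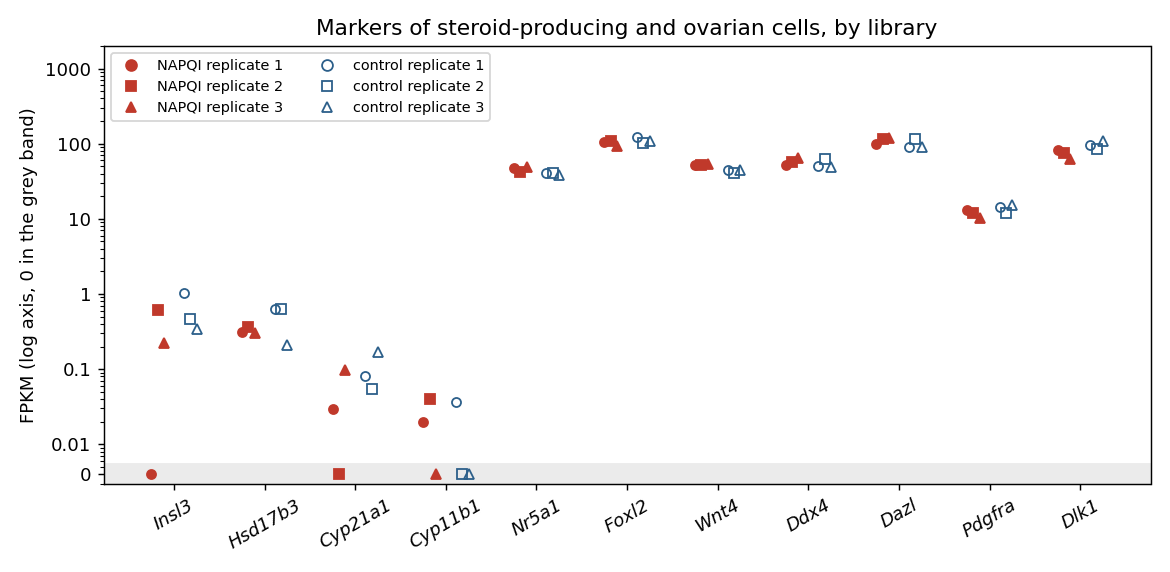
FPKM by library of markers of Leydig cells (Insl3, Hsd17b3), adrenal cortex (Cyp21a1, Cyp11b1), the steroidogenic regulator Nr5a1, pregranulosa cells (Foxl2, Wnt4), germ cells (Ddx4, Dazl) and gonadal interstitium (Pdgfra, Dlk1), on a log axis with values of 0 in the grey band. Insl3, Hsd17b3, Cyp21a1 and Cyp11b1 lie at or below 1.03 FPKM, and the other genes shown lie above 10 FPKM. The Leydig and adrenal lists also hold higher genes that are not shown, such as Thbs2 (Leydig) and Mrap (adrenal cortex).

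The comparison of interest was NAPQI against solvent. Counts were tested gene by gene with edgeR's quasi-likelihood test over all 14736 genes with enough reads, which included 8 of the 10; Cyp11a1 and Cyp19a1 had too few counts. Of the 8, 0 passed an adjusted p of 0.05 and 0 had an unadjusted p under 0.05. Over all tested genes 0.0814% passed the adjusted threshold (0.0746% higher and 0.00679% lower with NAPQI) and 9.24% had an unadjusted p under 0.05 (4.21% higher and 5.03% lower). The smallest unadjusted p among the 8 was 0.136, and DESeq2, limma-voom and the exact test of edgeR also called 0 of them. For none of the 10 did the 3 NAPQI libraries lie all above or all below the 3 controls, a pattern seen in 14.4% of tested genes (7.26% higher and 7.13% lower). Of the 8, 5 had a negative log2 fold change and 3 a positive one, against 52.6% and 47.4% of all tested genes. The median of the 8 was -0.08, against -0.01 for all tested genes.

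Cholesterol import and side-chain cleavage come first in the chain. Star (ENSMUSG00000031574; GRCm39 chromosome 8, 26296583 to 26306010, plus strand) had 14.0, 17.8 and 14.8 CPM (counts scaled to a common library size) in NAPQI replicates 1, 2 and 3, against 18.5, 17.6 and 17.9 CPM in control replicates 1, 2 and 3. NAPQI replicate 2 lay within the narrow control range, and the other NAPQI libraries lay below it. Its log2 fold change was -0.21 ± 0.15 (SE; edgeR adjusted p = 0.665), with a 95% interval of 0.692 to 1.08 times the control level. Without NAPQI replicate 2 the log2 fold change was -0.32 and without NAPQI replicate 1 it was -0.13.

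Cyp11a1 (ENSMUSG00000032323; chromosome 9, 57913694 to 57934306, plus strand) had 7, 5 and 5 counts in NAPQI replicates 1, 2 and 3 and 16, 2 and 11 counts in control replicates 1, 2 and 3. The control libraries thus held both the highest and the lowest value. The exact Poisson intervals, which cover counting error only, ran from 0.0141 to 0.421 CPM in control replicate 2 and from 0.534 to 1.52 CPM in control replicate 1, so these controls differed by more than counting error. Fitted without the low-count filter, its log2 fold change was -0.73 ± 0.81 (SE; edgeR adjusted p = 0.825).

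Fdx1, the small iron-sulphur protein that hands electrons to mitochondrial P450 enzymes, was among the steadiest. Fdx1 (ENSMUSG00000032051; chromosome 9, 51854606 to 51874856, minus strand) had 19.1, 23.4 and 21.9 CPM in NAPQI replicates 1, 2 and 3, against 25, 19.6 and 24.4 CPM in control replicates 1, 2 and 3. The groups overlapped, and the log2 fold change was -0.10 ± 0.14 (SE; edgeR adjusted p = 0.854). The 95% interval was 0.752 to 1.16 times the control level, the narrowest of the 8 together with those of Hsd3b1 and Star.

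The HSD3B step gave the largest numbers of reads. Hsd3b1 (ENSMUSG00000027871; chromosome 3, 98759510 to 98767110, minus strand) had 85.2, 93.2 and 67.8 CPM in NAPQI replicates 1, 2 and 3, against 110, 77.9 and 99.1 CPM in control replicates 1, 2 and 3. NAPQI replicate 3 was the lowest library, but control replicate 2 lay below NAPQI replicates 1 and 2, so the groups overlapped. The log2 fold change was -0.22 ± 0.14 (SE; edgeR adjusted p = 0.630), with a 95% interval of 0.698 to 1.06 times the control level. Leaving out control replicate 2 gave -0.34, and leaving out NAPQI replicate 3 or control replicate 1 gave -0.10.

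Hsd3b6, which in adult mice marks Leydig cells and the outer zone of the adrenal cortex, went with far fewer reads. Hsd3b6 (ENSMUSG00000027869; chromosome 3, 98712820 to 98721759, minus strand) had 30, 11 and 37 counts in NAPQI replicates 1, 2 and 3, against 15, 21 and 20 counts in control replicates 1, 2 and 3. NAPQI replicate 2 was the lowest of the 6 libraries and NAPQI replicates 1 and 3 were the highest. The log2 fold change of 0.52 ± 0.48 (SE; edgeR adjusted p = 0.761) went with an interval of 0.691 to 2.96 times the control level. It was 0.90 without NAPQI replicate 2 and 0.12 without NAPQI replicate 3.

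As a share of the reads of both paralogs, Hsd3b1 made up 97.9%, 99.3% and 96.4% in NAPQI replicates 1, 2 and 3 and 99.2%, 98.5% and 98.5% in control replicates 1, 2 and 3. The exact Clopper-Pearson intervals, which cover counting error only, ran from 95.03% to 97.4% in NAPQI replicate 3 and from 98.7% to 99.6% in NAPQI replicate 2, so these libraries of 1 group differed by more than counting error. The share averaged 97.8% ± 1.45 with NAPQI and 98.7% ± 0.42 in controls (SD, n = 3 each). The two-sided exact permutation p was 0.5, where the smallest that 3 against 3 allow is 0.1. The difference was -0.90 percentage points, -0.17 without NAPQI replicate 3 and -1.62 without NAPQI replicate 2. Of all 50-base words in Hsd3b6 transcripts of GENCODE M21, 2.11% also occur in Hsd3b1 and 13.2% in Hsd3b2, so a read of these genes cannot always be placed, and the handling of such reads in the counting is unstated.

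Cyp17a1, which makes androgen precursors and marks theca and Leydig cells, was low. Cyp17a1 (ENSMUSG00000003555; chromosome 19, 46655604 to 46661611, minus strand) had 3.29, 3.67 and 3.94 CPM in NAPQI replicates 1, 2 and 3, all between the lowest and the highest of 4.67, 2.56 and 4.36 CPM in control replicates 1, 2 and 3. The log2 fold change was -0.09 ± 0.30 (SE; edgeR adjusted p = 0.951), and its sign turned without control replicate 1 (0.09) or control replicate 3 (0.005). The 95% interval was 0.599 to 1.48 times the control level.

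Srd5a1, which reduces testosterone to dihydrotestosterone, had 5.52, 6.58 and 6.42 CPM in NAPQI replicates 1, 2 and 3, against 5.55, 5.53 and 6.28 CPM in control replicates 1, 2 and 3. Its log2 fold change was 0.10 ± 0.22 (SE; edgeR adjusted p = 0.916). Srd5a1 (ENSMUSG00000021594; chromosome 13, 69721568 to 69759561, minus strand) lies within the span of Nsun2 on the other strand, which averaged 123 CPM, and the counting's strandedness is unstated, so some reads of the pair may not be told apart; overlap of their exons was not examined. Also, 15.1% of its 50-base words in GENCODE M21 are shared with the transcript Gm17108.

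Hsd17b1, which activates oestrone to oestradiol in granulosa cells, varied widely among the controls. Hsd17b1 (ENSMUSG00000019301; chromosome 11, 100969237 to 100971353, plus strand) had 38, 30 and 20 counts in NAPQI replicates 1, 2 and 3, against 16, 42 and 13 counts in control replicates 1, 2 and 3. All NAPQI libraries lay above control replicates 1 and 3 and below control replicate 2. Its log2 fold change was 0.37 ± 0.45 (SE; edgeR adjusted p = 0.826), with a 95% interval of 0.652 to 2.55 times the control level. Without control replicate 2 it was 0.99 and without control replicate 1 it was 0.13.

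Cyp19a1 (ENSMUSG00000032274; chromosome 9, 54073221 to 54175394, minus strand) had 9, 10 and 5 counts in NAPQI replicates 1, 2 and 3, against 5, 8 and 18 counts in control replicates 1, 2 and 3. Control replicate 3 was the highest library and control replicate 1 shared the lowest count with NAPQI replicate 3. Fitted without the low-count filter, the log2 fold change was -0.39 ± 0.74 (SE; edgeR adjusted p = 0.898). The exact Poisson intervals of control replicate 1 (0.0949 to 0.682 CPM) and control replicate 3 (0.788 to 2.10 CPM) did not overlap.

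Nr0b1, the repressor, was the second of the 10 by mean FPKM. Nr0b1 (ENSMUSG00000025056; chromosome X, 85235370 to 85239553, plus strand) had 17.1, 15.5 and 12.4 CPM in NAPQI replicates 1, 2 and 3, against 16.9, 12.1 and 18.6 CPM in control replicates 1, 2 and 3. The log2 fold change was -0.08 ± 0.19 (SE; edgeR adjusted p = 0.921), with a 95% interval of 0.713 to 1.26 times the control level. Its sign turned without control replicate 3 (0.05), without NAPQI replicate 3 (0.05) and with a trend of the counts on gene length removed (0.009).

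**Figure D3:**
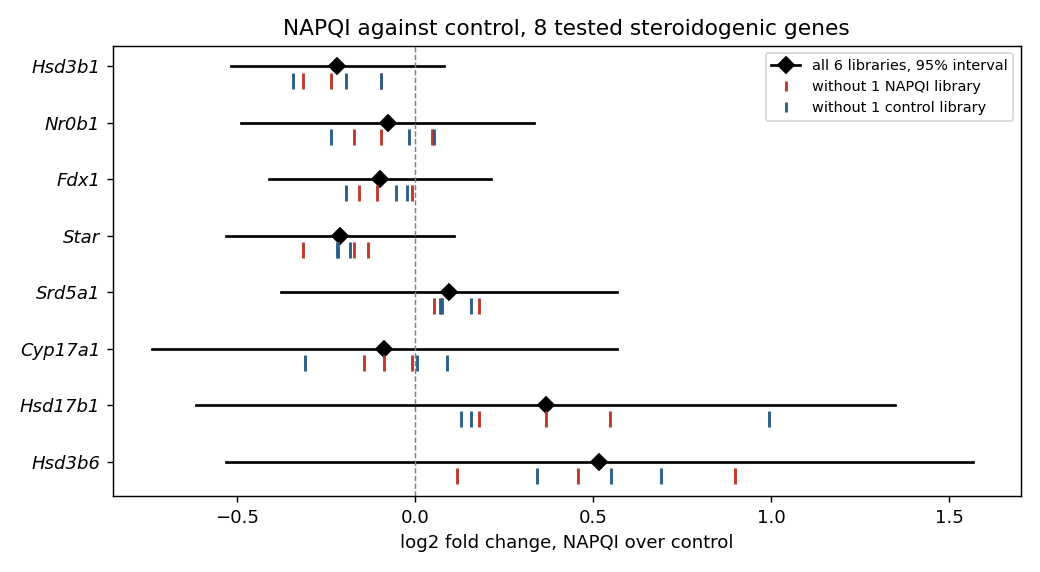
Log2 fold change, NAPQI over control, of the 8 tested genes with all 6 libraries (diamond) and its 95% interval (line), in order of FPKM; ticks below give the value with 1 NAPQI (red) or 1 control (blue) library left out. All intervals include 0, and they widen towards Hsd17b1 and Hsd3b6, the genes with the fewest reads.

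The intervals show what size of change the data leave possible. They lay within 1.5-fold of the control level, up or down, for 5 of the 8 genes (Star, Hsd3b1, Srd5a1, Fdx1 and Nr0b1), and within 2-fold for 6. They reached further for Hsd17b1 and Hsd3b6, and none was computed for Cyp11a1 and Cyp19a1, which fell below the count filter. In the authors' deposited table all 10 genes had an adjusted p of 1, with unadjusted p from 0.251 for Star to 0.835 for Cyp17a1. The log2 fold changes there ran from -0.76 for Cyp11a1 to 0.52 for Hsd3b6.

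Libraries also differed within a group. Summed counts per library were 14288452 to 16050342 with NAPQI and 13879347 to 17258609 in controls, and the 10 genes together took 0.0134% to 0.0165% of the counts with NAPQI and 0.0139% to 0.0184% in controls. Control replicate 1 held the highest value for 4 of the 8 tested genes, and NAPQI replicate 1 the lowest for 3. Control replicate 3 lay apart on the first principal component (-35.7, the other libraries -14.9 to 26.4) and had the highest share of erythroid counts, 0.0199% against 0.00218% to 0.0069%. In each library the deviation of genes from their mean was compared with gene length. Spearman correlations were 0.049 to 0.167 with NAPQI and 0.112, -0.099 and -0.3 in control replicates 1, 2 and 3. With the length trend removed the log2 fold change of Hsd3b1 was -0.14 and the median of the 8 was -0.014. Without control replicate 3 the genes called over the whole table numbered 1 in place of 12, none of them in the steroidogenic set. The number was also 1 without NAPQI replicate 1 and without NAPQI replicate 3. Without control replicate 3 the median log2 fold change of the 8 was 0.03, with Hsd3b1 at -0.19 and Star at -0.22.

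The pathway around these genes was read from 4 further lists with 66 genes in the table, of which 56 were tested. Of these, 0 passed the adjusted threshold by edgeR's quasi-likelihood test and 10 had an unadjusted p under 0.05, 5 higher and 5 lower (17.9%, against 9.24% of all tested genes). The groups did not overlap for 12 (21.4%, against 14.4% of all tested genes). Of these, 3 other enzymes and redox partners were higher with NAPQI. In cholesterol supply 1 was higher and 1 lower, and among the regulators and gonadotropin receptors 3 were higher and 4 lower. Over all tested genes 7.26% lay apart higher and 7.13% lower. DESeq2 called 1 of them, Scarb1, and edgeR's exact test called Scarb1 and Nr4a1.

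Cholesterol supply held 12 tested genes, with 6 negative log2 fold changes and a median of 0.02. Scarb1, the receptor that takes up cholesterol esters from high-density lipoprotein, had 91.1, 74.1 and 80.7 CPM in NAPQI replicates 1, 2 and 3, against 54.5, 59.9 and 60.5 CPM in control replicates 1, 2 and 3. All NAPQI libraries lay above all controls, with a log2 fold change of 0.49 ± 0.10 (SE; edgeR adjusted p = 0.173). It passed by DESeq2 (adjusted p = 0.0106), by edgeR's exact test (adjusted p = 0.00902) and by edgeR without a low-count filter (adjusted p = 0.0420). It did not pass by limma-voom (adjusted p = 0.181), with the length trend removed in edgeR (adjusted p = 0.243), with the replicate block (adjusted p = 0.308) or with any 1 library left out (edgeR adjusted p from 0.0779 to 0.519). Abcg1, a cholesterol exporter, had 16.2 ± 2.09 CPM with NAPQI and 22.4 ± 4.22 CPM in controls (SD, n = 3 each; edgeR adjusted p = 0.422). For Abcg1 all NAPQI libraries lay below all controls. Npc2, a lysosomal cholesterol carrier, had 178 ± 19.1 CPM with NAPQI and 209 ± 23.1 CPM in controls (edgeR adjusted p = 0.545). Soat1, which stores cholesterol as esters, was the most abundant of the list at 912 ± 120 CPM with NAPQI and 835 ± 136 CPM in controls (edgeR adjusted p = 0.786).

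Among the other enzymes and redox partners 17 of 26 genes in the table were tested, with 11 negative log2 fold changes and a median of -0.05. Hsd17b7, which acts in cholesterol synthesis and on oestrone, had 36.4 ± 1.00 CPM with NAPQI and 29.1 ± 2.06 CPM in controls (SD, n = 3 each; edgeR adjusted p = 0.416). H6pd, which supplies NADPH in the endoplasmic reticulum, had 46.6 ± 2.21 CPM with NAPQI and 37.8 ± 4.91 CPM in controls (edgeR adjusted p = 0.455). For both genes all NAPQI libraries lay above all controls, a pattern seen in 7.26% of tested genes. Cyb5b, a cytochrome of the outer mitochondrial membrane, and Hsd17b4, a peroxisomal enzyme, had the highest CPM of the list. By mean FPKM over the 6 libraries, which corrects for gene length, Hsd17b10 led at 62 FPKM. Hsd17b4 was at 34.9 FPKM and Cyb5b at 33.8 FPKM. On the log2 scale Cyb5b differed by 0.23 ± 0.13 (edgeR adjusted p = 0.593) and Hsd17b4 by -0.001 ± 0.085 (edgeR adjusted p = 0.998). The sign of Hsd17b4 turned under other scalings.

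The regulators and gonadotropin receptors gave 18 tested genes, with 12 negative log2 fold changes and a median of -0.06. Nr4a1, an immediate early nuclear receptor that can induce steroidogenic genes, had 17.6, 85.1 and 15.8 CPM in NAPQI replicates 1, 2 and 3, against 97.1, 133 and 203 CPM in control replicates 1, 2 and 3. All NAPQI libraries lay below all controls, a pattern seen in 7.13% of tested genes. NAPQI replicate 2 stood near the lowest control and far above the other NAPQI libraries. The log2 fold change was -1.87 ± 0.49 (SE; edgeR adjusted p = 0.278), and without NAPQI replicate 2 it was -3.10 (edgeR adjusted p = 3.52e-05). With any other library left out Nr4a1 did not pass in edgeR, at log2 fold changes of -2.076 to -1.485. It passed by edgeR's exact test (adjusted p = 0.0361) and by edgeR without a low-count filter (adjusted p = 0.0297). It did not pass by DESeq2 (adjusted p = 0.433) or limma-voom (adjusted p = 0.157). Cited2, a cofactor of NR5A1 and WT1, had 75.5 ± 6.38 CPM with NAPQI and 97.0 ± 8.77 CPM in controls (edgeR adjusted p = 0.306). For Cited2 too all NAPQI libraries lay below all controls. Wt1 and Prkar1a, a regulatory subunit of protein kinase A, had the highest CPM of the list, a measure not corrected for gene length. By mean FPKM over the 6 libraries Prkar1a (113 FPKM) was followed by Foxl2 (107 FPKM), Gata4 (102 FPKM) and Wt1 (88.7 FPKM). Wt1 had a value of -0.04 ± 0.09 on the log2 fold change scale (edgeR adjusted p = 0.915) and Prkar1a one of 0.02 ± 0.09 (edgeR adjusted p = 0.967). Fshr, the receptor of follicle-stimulating hormone, had at most 2 counts in any library.

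All 9 steroid receptor genes were tested, with 5 negative log2 fold changes and a median of -0.12, and 0 had an unadjusted p under 0.05. Nr3c2, the mineralocorticoid receptor, had 8.22 ± 2.83 CPM with NAPQI and 12.0 ± 2.80 CPM in controls (SD, n = 3 each; edgeR adjusted p = 0.549). Pgrmc1 and Pgrmc2, haem-binding membrane proteins, were the most abundant. For Pgrmc1 the log2 fold change was -0.14 ± 0.10 (edgeR adjusted p = 0.657), and for Pgrmc2 it was 0.01 ± 0.09 (edgeR adjusted p = 0.979). The sign of Pgrmc2 turned with 3 of the libraries left out.

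**Figure D4:**
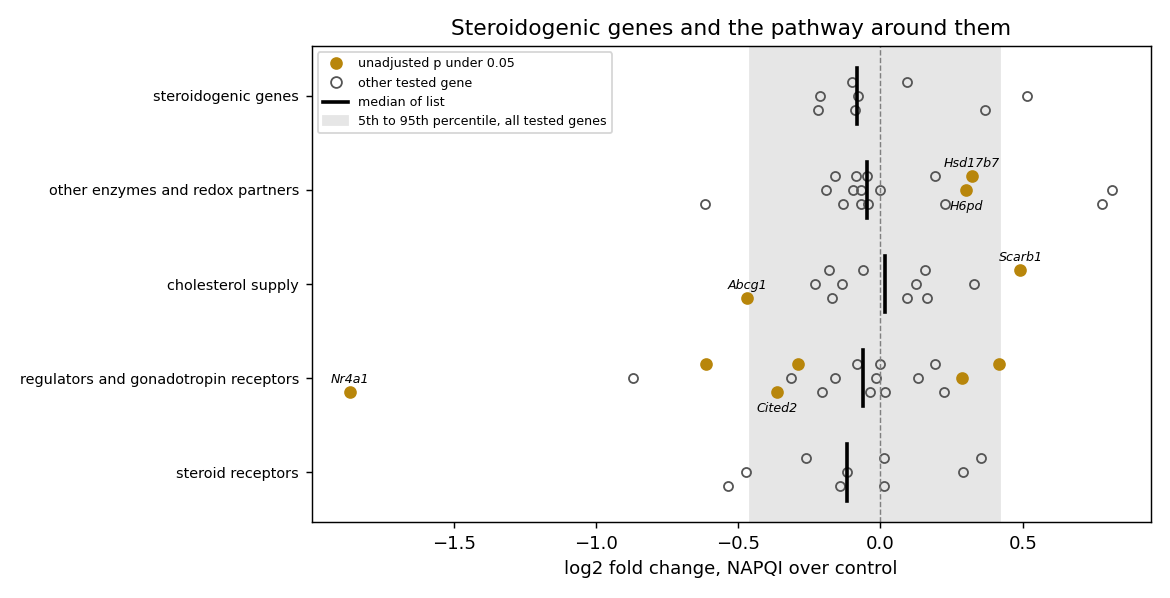
Log2 fold change, NAPQI over control, of each tested gene in the steroidogenic set and in 4 lists around it; filled points have an unadjusted p under 0.05, names mark those described in the text, the black line is the median of a list and the grey band holds the 5th to 95th percentile of all tested genes (-0.46 to 0.42). The steroidogenic set has no filled point, and Nr4a1 lies farthest from 0.

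Markers of other cells were read beside these values. Of the 6 interstitial markers, 5 had a negative log2 fold change and 3 an unadjusted p under 0.05, all lower, with 0 passing by edgeR's quasi-likelihood test; their summed level was 657 to 855 CPM with NAPQI and 827 to 1050 CPM in controls. The 5 macrophage markers were all negative, 2 with an unadjusted p under 0.05, with sums of 51.2 to 61.9 CPM with NAPQI and 58.1 to 86.0 CPM in controls. Of all tested genes 52.6% had a negative log2 fold change. By edgeR's quasi-likelihood test 5.03% of them were lower and 4.21% higher at an unadjusted p under 0.05. Sums of pregranulosa markers were 2410 to 2700 CPM with NAPQI and 2450 to 2950 CPM in controls, and those of germ cell markers 1370 to 1630 CPM with NAPQI and 1360 to 1530 CPM in controls. Of the 9 pregranulosa markers 1 had an unadjusted p under 0.05 (Wnt4, higher), and of the 6 tested germ cell markers 1 (Rec8, lower). The fetal Leydig list, which holds 4 of the steroidogenic genes, summed to 286 to 364 CPM with NAPQI and 336 to 443 CPM in controls. Thbs2 alone gave 199 to 258 CPM of it with NAPQI and 237 to 307 CPM in controls. The sums of Sertoli, mesonephric, adrenal, endothelial and erythroid markers overlapped between the groups too. The part of these cells in the values of Hsd3b1 and Star was not tested.

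The genes whose log2 CPM followed Star most closely over the 6 libraries were Zbtb45, Ercc3 and S1pr1, at Pearson r of 0.984, 0.983 and 0.979. By rank the likeness was weaker, at Spearman rho of 0.714, 0.943 and 0.886. For Cyp11a1 the closest genes were Epas1, Adgrl1 and Zfpl1, at Pearson r of 0.992, 0.987 and 0.984 and Spearman rho of 0.943, 0.886 and 0.943. Of 11869 genes compared, 62 reached an r over 0.9 with Star and 191 with Cyp11a1, whose profile rests on 2 to 16 counts. These values are a description over 6 libraries that share 1 experiment.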

How the data were processed

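Total RNA of whole cultured ovaries was sequenced as 6 libraries; titles gave the groups. The authors deposited raw read counts per gene and FPKM values, which equal counts per kilobase of the deposited gene length and scaled to counted reads within 0.00149% by calculation. FastQC 0.11.8, HISAT2 2.0.5, HTSeq 0.9.1 and GRCm39 are named per the submitters' processing notes; settings and strandedness are not stated there. The authors also deposited a comparison table, with signal columns of mean normalised counts, their ratio (fold), its log2 and p-values, per the file headers. Each table had 1 emptied line, not analysed here.

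Counts were fitted in R 4.3.3 with edgeR 4.0.16 (filterByExpr with a minimum count of 10, TMM, two-sided quasi-likelihood F-test, Benjamini-Hochberg over all genes, threshold 0.05); CPM use TMM-scaled totals. Intervals are fold change ± SE times the t quantile at 95%. FPKM served levels between genes. Alternatives were other scalings, filters and tests (DESeq2 1.42.0, limma 3.58.1), a length trend removed (lowess, span 0.3), the replicate number as a block and each library left out. Scripts were tested on simulated data. Genes named were all 10, and of each pathway list those that passed, the 3 with the smallest p and the 2 with the highest CPM; the others named were chosen after their values were seen. Some genes that the rule selects are not reported here. For Star and Cyp11a1, the 3 genes with a mean of at least 5 CPM and the highest r of log2(CPM + 0.5) were named. The genes and lists were chosen with earlier results of these data known. Python 3.11.15 with matplotlib 3.10.9 made the figures.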

Additional observations from a re-analysis of the deposited data

How the results depend on the processing

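None of the 8 tested genes was called under any of 16 alternatives, nor were Cyp11a1 and Cyp19a1 without a low-count filter, and the median log2 fold change of the 8 ranged from -0.21 to 0.03. The genes called overall numbered 12, but 48 without a low-count filter, 75 by DESeq2, 115 by edgeR's exact test, 1 by limma-voom and 1 with the replicate block, and 1 to 58 with 1 library left out. Of the same-numbered pairs of libraries, 0 of 3 were over a correlation of 0.1. Among pairs with different numbers the correlation reached 0.212 (NAPQI replicate 3 with control replicate 2). With 3 libraries per group this check cannot decide whether libraries were paired. The replicate block changed no call among the 8. Of the pathway lists, 0 genes were called, but 2 without a low-count filter, 1 by DESeq2, 2 by the exact test and 0 to 1 with 1 library left out (Nr4a1 without NAPQI replicate 2). Signs turned for Nr0b1 (0.009 with the length trend removed; -0.236 to 0.051 with 1 library left out), Cyp17a1 (-0.31 to 0.088), Pgrmc2 (-0.028 to 0.074) and Hsd17b4 (-0.026 to 0.045; 0.003 with DESeq2 size factors or DESeq2, 0.011 with upper quartile scaling, 0.027 by library size alone, 0.009 without a filter, 0.005 at 1 CPM in 3 libraries, 0.026 with the length trend removed); the cause was not tested. The medians of the cholesterol, enzyme and regulator lists also took either sign with 1 library left out. Cyp11a1, Cyp19a1, Hsd3b6 and Hsd17b1 had the fewest reads, and for each some libraries of 1 group differed by more than counting error.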
